A study of Homo sapiens with 12 samples.

Results

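This account covers the libraries of Ishikawa cells treated with estradiol (E2) together with fulvestrant, set against the libraries that received the vehicle DMSO. Of the 12 libraries of the series, 8 belong to this comparison: 4 with E2 plus fulvestrant and 4 with DMSO. They were taken by their labels, 2 libraries per treatment in each of 2 arms, and the arm was kept as a block in the test. Ishikawa, the line the labels name, is an established line from a human endometrial adenocarcinoma. One arm, shNC, carried a control hairpin, and the other, shARID1A, carried a hairpin against ARID1A, a DNA-binding subunit of the BAF form of SWI/SNF chromatin remodellers. Cells of all groups were grown without phenol red in serum treated with charcoal and dextran, which removes steroid hormones, and were treated for 8 hours. E2 was given at 10 nM and fulvestrant at 100 nM. The 4 groups used throughout are therefore shNC with DMSO, shNC with E2 plus fulvestrant, shARID1A with DMSO and shARID1A with E2 plus fulvestrant. The other 4 libraries, with E2 alone, enter only where stated. The number of hairpins or clones behind each arm is not given in the sources used here, nor whether replicates were separate cultures, so that p-values measure only how far libraries differ, which may be technical.

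E2 enters the cell and binds estrogen receptor alpha, encoded by ESR1, which then occupies estrogen response elements in DNA, recruits coactivators and changes transcription of target genes. Fulvestrant is a steroidal antagonist that competes with E2 for the receptor and promotes its degradation. Cells that receive both agents are the usual control for how far an E2 response runs through the receptor, and a comparison of them with vehicle asks what remains of a hormone effect when the receptor is blocked. In endometrial epithelium E2 drives proliferation and induces the progesterone receptor gene PGR.

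No gene passed the test over both arms. Of the 16540 genes that entered edgeR's quasi-likelihood test, 0 had a Benjamini-Hochberg adjusted p under 0.05, which is 0% of the tested genes. At an unadjusted p under 0.05 there were 1499 genes, 9.06% of those tested, of which 811 had a positive and 688 a negative log2 fold change. DESeq2 also called 0 genes. The smallest adjusted p was 0.0555, for ENSG00000206417.4, matched by identifier to the antisense RNA gene H1-10-AS1. A log2 fold change is positive throughout where E2 plus fulvestrant was higher than DMSO.

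The 8 libraries held 28753202 to 32529355 counts, and levels are given as CPM, counts relative to library totals scaled by TMM. ARID1A, the targeted gene, lay at 110.1 to 119 CPM in the 4 shNC libraries used here and at 53.9 to 61.8 CPM in shARID1A. ARID1A itself had a log2 fold change of -0.04 between the treatments (95% interval -0.14 to 0.07). Epithelial markers were mixed. The epithelial keratin gene KRT8 was at 343 to 620 CPM, KRT18 at 194 to 321 CPM and KRT7 at 392 to 510 CPM. The mucin gene MUC1 was at 66.2 to 107 CPM, the epithelial splicing regulator gene ESRP2 at 62.7 to 92.0 CPM and the tight junction gene CLDN7 at 42.8 to 52.9 CPM. In contrast, the epithelial adhesion genes EPCAM (0.687 to 1.98 CPM) and CDH1 (0 to 0.659 CPM) were near the detection limit. KRT19 had at most 5 counts, ESRP1 at most 2 and CLDN4 at most 11. ESR1 was also near that limit and PGR had 0 counts, which goes against what is known of Ishikawa as a line with estrogen receptor. The identity of the line was not tested and the label is kept, so every value of an estrogen target below is from cells with little ESR1 RNA. Of the defining markers of other cell types, PTPRC, CD3E, MS4A1 and LUM had 0 counts in all 8 libraries, and COL3A1, PDGFRA, CDH5 and VWF had at most 7, and CD14 at most 22. A count of 0 allows up to 3 counts, 0.0912 to 0.103 CPM in these libraries, and this limit covers counting error only. In bulk RNA, fewer cells of a type and less RNA in each cell cannot be told apart. COL1A1, a fibroblast collagen gene, was present at 25.3 to 47.9 CPM. The summed level of the 12 stromal markers was 573 to 617 CPM with DMSO and 572 to 610.5 CPM with E2 plus fulvestrant. VIM, an intermediate filament gene that many cultured lines express, made up 521 to 578 CPM of it and 4 of the 12 were at 0 counts, so the sum is mainly the level of VIM. The summed level of the 10 immune markers was 2.30 to 3.91 CPM with DMSO and 2.23 to 3.16 CPM with both agents.

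The receptor side of the pathway was close to the limit of detection. ESR1 (chromosome 6, 151977826 to 152450754, hg19) had 2 to 24 counts per library. Its levels were 0.517 and 0.810 CPM in shNC with DMSO, 0.502 and 0.482 CPM in shNC with E2 plus fulvestrant, 0.728 and 0.709 CPM in shARID1A with DMSO, and 0.0687 and 0.372 CPM in shARID1A with E2 plus fulvestrant. All 4 E2 plus fulvestrant libraries lay under the DMSO libraries of their own arm, in shNC only by 0.502 against 0.517 CPM. The same held for 649 of the 16540 tested genes (3.92%). The fitted log2 fold change of ESR1 was -0.92 (95% interval -1.80 to -0.04, unadjusted p = 0.041 from edgeR, adjusted p = 0.53), so it did not pass the test and its size is poorly known. With E2 alone ESR1 had 0.320 and 1.09 CPM in shNC and 0.384 and 0.650 CPM in shARID1A. ESR2, the gene for estrogen receptor beta, had 0 to 6 counts per library, and the estrogen-related receptor genes ESRRB and ESRRG had 0. ESRRA, an orphan receptor that does not bind E2, was the well-expressed member of the family at 76.2 to 84.0 CPM, with a log2 fold change of -0.03 (95% interval -0.13 to 0.07). PGR had 0 counts in all 8 libraries.

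Of 18 coregulators and partner factors of the receptor that were measured, 0 were called, 10 had positive and 8 negative log2 fold changes, and the median was 0.03 beside 0.0008 for all tested genes. NCOA3, a p160 coactivator, was at 54.5 and 55.3 CPM in shNC with DMSO and at 58.7 and 58.5 CPM with E2 plus fulvestrant. In shARID1A it was at 51.1 and 43.7 CPM with DMSO and at 50.6 and 58.6 CPM with both agents, so that the groups overlapped in that arm only. The NCOA3 log2 fold change was 0.15 (95% interval 0.02 to 0.27, edgeR adjusted p = 0.52). PHB2, a corepressor of the receptor that also acts in mitochondria, had -0.09 (95% interval -0.17 to -0.01, edgeR adjusted p = 0.52), and the p160 coactivator NCOA2 had 0.12 (95% interval -0.03 to 0.28).

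**Figure D1:**
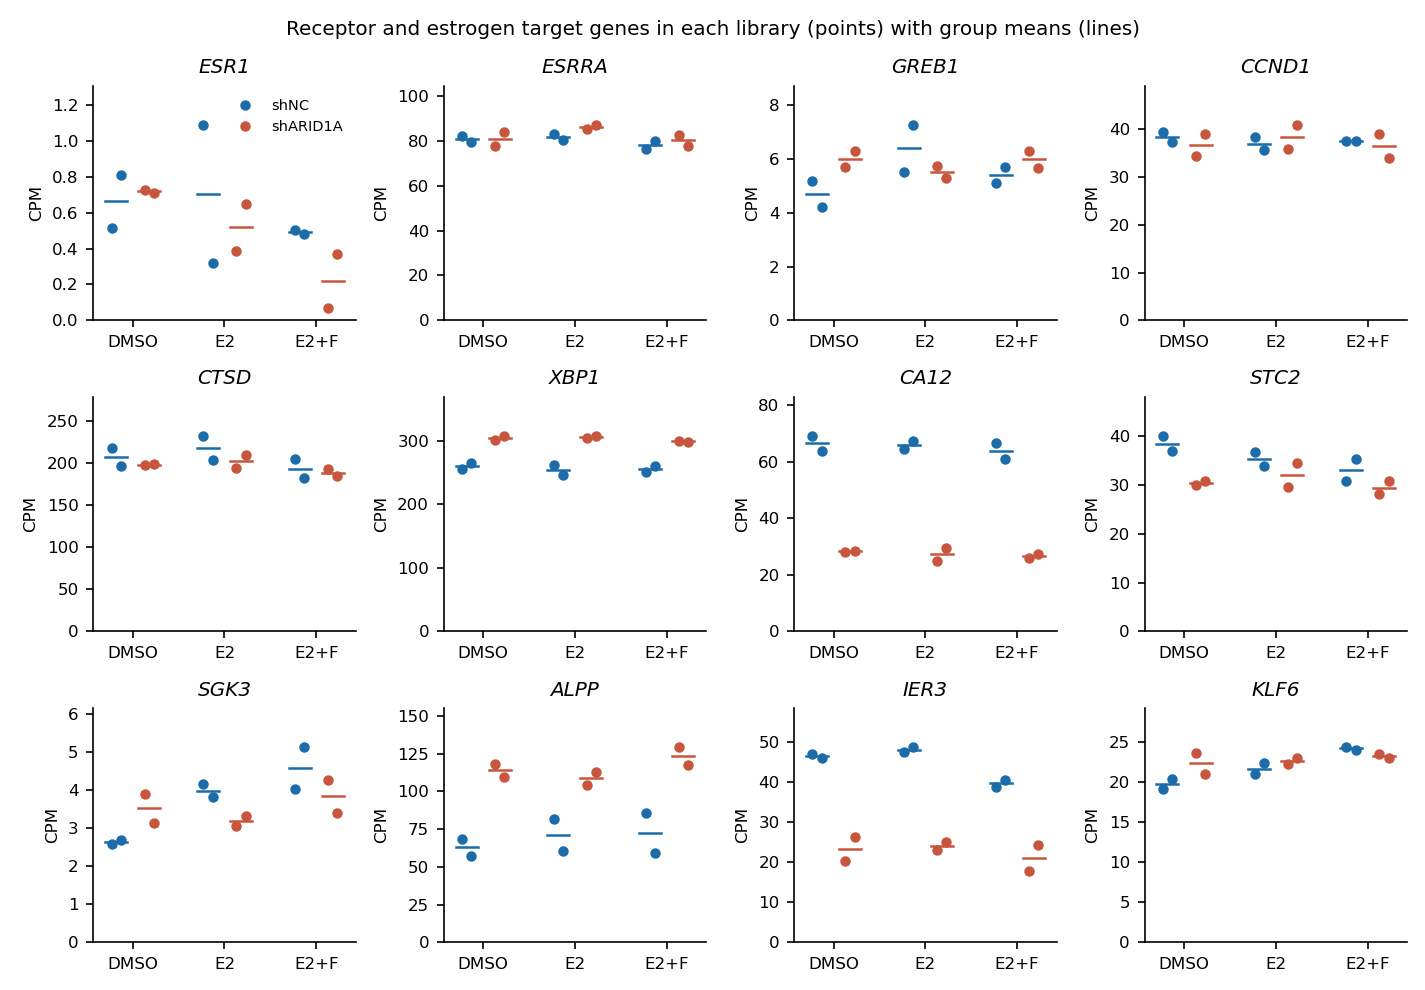
Levels in CPM (vertical axes, linear, from 0) of 12 receptor and estrogen target genes in each of the 12 libraries, by treatment (E2+F is E2 plus fulvestrant) and arm, with short lines at the means of 2 libraries. CA12, XBP1 and ALPP differ more between the arms than between treatments, and ESR1 is at most 1.09 CPM in any library.

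Genes that E2 is known to raise in breast or endometrial cells were examined next. Of 50 listed genes 31 were measured, and 0 of them were called in either direction, where the background was 0% of all tested genes. Their median log2 fold change was -0.01, beside 0.0008 for all tested genes, with 14 positive and 17 negative values. In the arms taken apart the medians were -0.03 in shNC and 0.02 in shARID1A. For 24 of the 31 genes the 95% interval lay entirely within a 1.5-fold change either way, so changes of that size are outside the interval of most members. The remaining members, such as AREG, MREG and PDZK1, were low in all groups and had intervals wider than this.

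GREB1, an early target and cofactor of the receptor, had 5.20 and 4.22 CPM in shNC with DMSO and 5.12 and 5.72 CPM with E2 plus fulvestrant. In shARID1A the GREB1 values were 5.69 and 6.32 CPM with DMSO and 6.29 and 5.68 CPM with both agents. The groups overlapped in each arm, and the log2 fold change was 0.09 (95% interval -0.19 to 0.37, edgeR adjusted p = 0.88). SGK3, a serine/threonine kinase gene of the AKT-related family, was one of 2 members with an unadjusted p under 0.05. It lay at 2.58 and 2.70 CPM in shNC with DMSO and at 4.05 and 5.14 CPM with both agents, without overlap. In shARID1A the SGK3 levels of 3.91 and 3.14 CPM with DMSO and 4.26 and 3.42 CPM with both agents overlapped. Over both arms SGK3 had a log2 fold change of 0.46 (95% interval 0.09 to 0.82, edgeR adjusted p = 0.51), and E2 alone against the same DMSO libraries gave 0.23.

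ALPP encodes placental alkaline phosphatase, whose enzyme activity is a common E2 readout in Ishikawa cells. ALPP was at 68.5 and 57.2 CPM in shNC with DMSO and at 85.4 and 59.2 CPM with E2 plus fulvestrant, so that the replicates differed by more than the treatments. In shARID1A it was at 118 and 109.6 CPM with DMSO and at 129 and 117 CPM with both agents. The log2 fold change of ALPP was 0.15 (95% interval 0.01 to 0.29, edgeR adjusted p = 0.53). Reads of ALPP can be shared with near-identical alkaline phosphatase genes, so its level is uncertain. STC2, which encodes the secreted glycoprotein stanniocalcin, had 40.0 and 36.9 CPM in shNC with DMSO and 30.8 and 35.3 CPM with both agents, and in shARID1A all 4 values were 28.0 to 30.9 CPM. Its log2 fold change was -0.14 (95% interval -0.28 to 0.00, edgeR adjusted p = 0.55).

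Of the other well-known targets, 4 chosen after their values were seen show how narrow the intervals were at higher levels. CCND1, the cyclin D gene, was at 34.0 to 39.5 CPM in the 8 libraries, with a log2 fold change of -0.02 (95% interval -0.16 to 0.11). XBP1, a transcription factor of the secretory pathway, was at 251 to 266 CPM in the 4 shNC and 299 to 307 CPM in the 4 shARID1A libraries, with -0.02 (95% interval -0.10 to 0.05). CTSD, the lysosomal protease cathepsin D, was at 182 to 218 CPM with -0.09 (95% interval -0.18 to 0.01). CA12, a carbonic anhydrase gene, was at 61.1 to 69.1 CPM in shNC and 26.2 to 28.6 CPM in shARID1A, with -0.07 (95% interval -0.19 to 0.06). In each of these genes the DMSO and E2 plus fulvestrant libraries of at least 1 arm overlapped.

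Among 14 measured genes that E2 is known to lower, 0 were called, 7 values were positive and 7 negative, and the median was 0.01. All 14 intervals lay within a 1.5-fold change. IER3, a stress-inducible regulator of cell survival, was at 47.0 and 46.1 CPM in shNC with DMSO and at 38.9 and 40.7 CPM with both agents. In shARID1A the IER3 levels were 20.4 and 26.5 CPM with DMSO and 17.9 and 24.5 CPM with both agents, so that the groups were apart in shNC and overlapped in shARID1A. Its log2 fold change was -0.19 (95% interval -0.36 to -0.03, edgeR adjusted p = 0.52). KLF6, a zinc finger transcription factor gene, rested on the shNC arm too, at 19.2 and 20.4 CPM with DMSO and 24.4 and 24.1 CPM with both agents, beside 21.0 to 23.7 CPM in the 4 shARID1A libraries. Over both arms KLF6 had a log2 fold change of 0.18 (95% interval 0.02 to 0.34, edgeR adjusted p = 0.52), and CCNG2, an atypical cyclin gene, had -0.16 (95% interval -0.39 to 0.06).

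**Figure D2:**
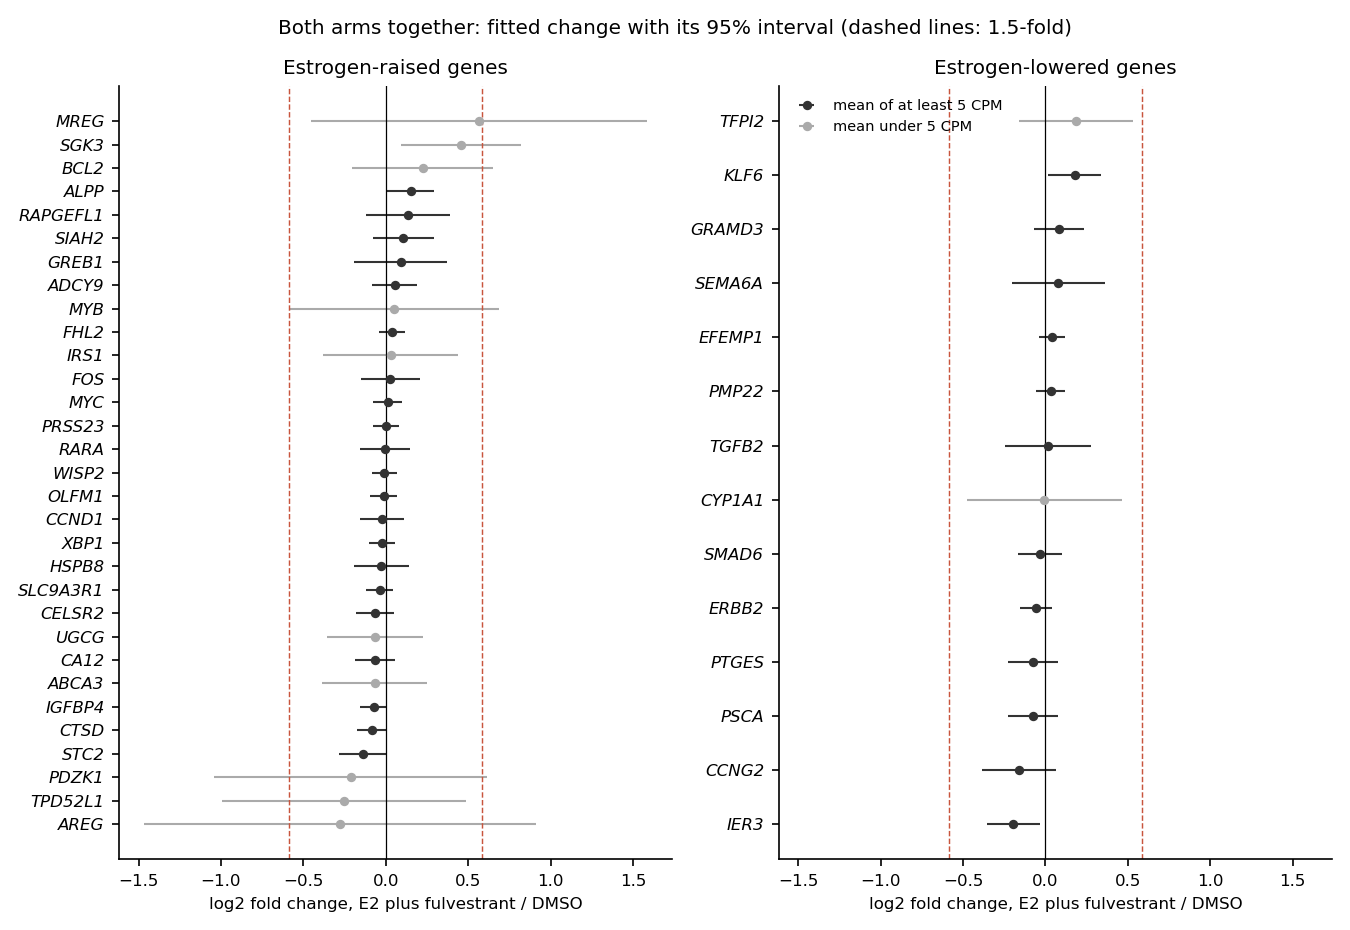
Fitted log2 fold change (horizontal axes) of E2 plus fulvestrant against DMSO over both arms for the 31 measured estrogen-raised and 14 estrogen-lowered genes, with 95% intervals; dashed lines mark 1.5-fold either way. Black points have a mean of 5 CPM or more, and the wide grey intervals belong to genes under that level.

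Promoters bear on these genes because the receptor binds DNA at the estrogen response element, a pair of inverted cores, GGTCA and TGACC, that stand 3 bases apart. RefSeq promoter windows (GRCh38.p14), from 250 bases before to 50 bases after the gene start, were searched on both strands for the full element GGTCANNNTGACC and for a single core, GGTCA or TGACC, so that every full element also counts as a core. The full element occurred in 20 of 35116 windows (0.057%), and a core in 37.4%. By symbol, 8738 of the 16540 tested genes had a window, and only 1 window was kept per symbol, so that other promoters of a gene are left out. Of these 8738 genes 34.4% held a core. Of 65 tested members of the receptor, coregulator, raised and lowered lists 49 had a window: 13 of these (26.5%) held a core and 0 the full element. The element was found in 1 tested gene, the zinc finger gene ZNF669. Stretches around the match in ZNF669 and around cores in ALPP, CTSD and XBP1, whose levels are described here, are given 5′ to 3′ on the strand of the gene with the matched letters in capitals. ZNF669 lies on the minus strand (chr1:247104488-247104560), ALPP on the plus strand (chr2:232378626-232378690), CTSD on the minus strand (chr11:1764088-1764152) and XBP1 on the minus strand (chr22:28800716-28800780).
ZNF669: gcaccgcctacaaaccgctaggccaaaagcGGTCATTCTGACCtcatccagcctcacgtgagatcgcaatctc
ALPP: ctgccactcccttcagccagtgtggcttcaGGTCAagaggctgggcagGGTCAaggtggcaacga
CTSD: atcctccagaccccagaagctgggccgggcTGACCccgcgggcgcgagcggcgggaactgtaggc
XBP1: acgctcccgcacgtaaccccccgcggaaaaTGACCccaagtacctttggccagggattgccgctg

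ZNF669, with the full element 174 bases before its start, was at 5.65 and 8.31 CPM in shNC with DMSO and at 7.19 and 6.90 CPM with E2 plus fulvestrant. In shARID1A ZNF669 was at 7.45 and 7.90 CPM with DMSO and at 7.36 and 7.41 CPM with both agents. Its log2 fold change was -0.02 (95% interval -0.27 to 0.24). Of the 3004 tested genes with a core in the window, 285 (9.49%) had an unadjusted p under 0.05, beside 10.4% of all 8738 tested genes with a window. The AP-1 site TGANTCA, through which the receptor can also act by way of FOS and JUN proteins, was in 391 tested genes, of which 38 (9.72%) had an unadjusted p under 0.05. These matches are descriptions of short windows near the gene start and leave distal elements out.

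The width of the intervals depended on the level of a gene. Over both arms the median 95% interval extended 0.21 log2 units either way, which is 1.15-fold. The interval lay within a 1.5-fold change for 11622 of the 16540 genes (70.3%) and within a 2-fold change for 83.2%. Among 6172 genes of 5 to 50 CPM it lay within 1.5-fold for 6115 (99.1%), and among 4153 genes over 50 CPM for 4151. Under 1 CPM, the range of ESR1, it did so for 0 of 3294 genes. Of the genes over 50 CPM, 0 had a fitted change past 1.5-fold.

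Libraries of different treatment were about as far apart as replicates, except for replicate 1 of shNC with DMSO, which lay further from both E2 plus fulvestrant libraries of its arm. Over the 10325 genes whose mean reached 5 CPM, the median absolute log2 difference between 2 replicates was 0.0895 to 0.098 in shNC and 0.082 to 0.0959 in shARID1A. Between a DMSO and an E2 plus fulvestrant library it was 0.0808 to 0.143 in shNC and 0.0801 to 0.102 in shARID1A. The shNC values were 0.112 and 0.143 for replicate 1 with DMSO and 0.0808 and 0.0937 for replicate 2 with DMSO. Over all tested genes both E2 plus fulvestrant libraries lay above both DMSO libraries in each arm for 594 genes (3.59%), below in each arm for 649 (3.92%), and on opposite sides in the arms for 763 (4.61%). The arms share no library, and across the 10325 genes their log2 fold changes had a Pearson correlation of 0.129 with the same sign in 58.5%. Genes are not independent replicates, and this value is a description.

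Outside the lists, 4 genes with a small p over both arms are given as examples. They were chosen after their values were seen, and other genes with a p as small, pseudogenes among them, are not described. SWAP70, an actin-binding guanine nucleotide exchange factor, was at 53.05 and 56.4 CPM in shNC with DMSO and 63.5 and 70.9 CPM with both agents. In shARID1A SWAP70 was at 65.3 and 62.8 CPM with DMSO and 70.4 and 76.9 CPM with both agents. The groups were apart in each arm, and the log2 fold change was 0.25 (SE 0.06, edgeR adjusted p = 0.41). SPPL2A, an intramembrane protease of endosomes and lysosomes, was also apart in each arm, with 31.7 to 42.3 CPM in the DMSO and 38.0 to 52.3 CPM in the E2 plus fulvestrant libraries, and had 0.28 (SE 0.06, edgeR adjusted p = 0.41). U2SURP, a factor associated with the splicing machinery, had 0.21 (SE 0.05, edgeR adjusted p = 0.41). HES4, a transcriptional repressor of the Notch pathway, had 70.6 to 76.8 CPM in the 4 DMSO libraries. With E2 plus fulvestrant HES4 was at 50.6 and 58.5 CPM in shNC and at 77.4 and 57.4 CPM in shARID1A, so that 1 shARID1A library stood above every DMSO value. Its log2 fold change was -0.28 (SE 0.07, edgeR adjusted p = 0.41).

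H1-10-AS1 came nearest to the threshold. It lies on chromosome 3 (129034235 to 129045068, hg19) and was at 105 and 111 CPM in shNC and 102 CPM in each shARID1A library with DMSO. With both agents H1-10-AS1 (ENSG00000206417.4) was at 65.1 and 91.0 CPM in shNC and at 92.3 and 74.1 CPM in shARID1A, below every DMSO library, while the replicates of a group were further apart than with DMSO. The log2 fold change was -0.39 (95% interval -0.53 to -0.25, edgeR adjusted p = 0.0555), and E2 alone gave -0.19. No strand setting is recorded for the counting, so reads of this antisense gene and of a gene on the other strand cannot be told apart. Without replicate 1 of shARID1A with E2 plus fulvestrant 50 genes were called over both arms, 33 higher and 17 lower, among them H1-10-AS1, HES4, SWAP70, SPPL2A and U2SURP. The count was 4 without replicate 2 of shNC with both agents, 2 without replicate 1 of shARID1A with DMSO, 1 without replicate 2 of shARID1A with both agents and 0 without any 1 of the other libraries.

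Each arm was then read on its own, from a fit of 4 group means to the same 8 libraries. In shNC 6 genes were called, 0.0363% of those tested, and all 6 were lower with E2 plus fulvestrant. At an unadjusted p under 0.05 there were 1644 genes in shNC (9.94%), beside 9.06% over both arms. DESeq2 called 17 in shNC, of which 3 were among these 6. In shARID1A 0 were called (0%), with 683 at an unadjusted p under 0.05 (4.13%) and 0 by DESeq2. The test of the difference between the arms called 0 genes (0%), with 816 at an unadjusted p under 0.05 (4.93%) and 1 by DESeq2. None of the 6 shNC genes is therefore shown to respond differently in the 2 arms. With any 1 library left out its group holds a single library, which is assumed to vary like the other groups, and the calls numbered 1 to 7 in shARID1A and 1 to 11 for the difference.

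MRPL17, a protein of the large mitochondrial ribosomal subunit, fell in shNC from 143 and 135 to 103 and 104 CPM (log2 fold change -0.44, SE 0.06, edgeR adjusted p = 0.00133). In shARID1A MRPL17 was at 159 and 160.2 CPM with DMSO and at 162 and 153 CPM with both agents (-0.02), and the difference between arms was 0.42 (95% interval 0.23 to 0.60, edgeR adjusted p = 0.198). MT-ND5, a mitochondrially encoded subunit of respiratory complex I, fell in shNC from 3114 and 3122 to 2532 and 2742 CPM (-0.24, SE 0.04, edgeR adjusted p = 0.028). Its 4 values in shARID1A ran from 3506 to 3583 CPM (-0.02). PIK3C2B, a class II phosphoinositide 3-kinase, fell in shNC from 202 and 203 to 170.1 and 156 CPM (-0.31, SE 0.06, edgeR adjusted p = 0.0426), and in shARID1A it stood between 295 and 322 CPM (0.04). H1-10-AS1 (ENSG00000206417.4) fell in shNC by 0.47 on the log2 scale (edgeR adjusted p = 0.0426) and had -0.30 in shARID1A. KANTR (ENSG00000232593.2), a long noncoding RNA gene of the X chromosome, fell in shNC from 4.01 and 4.69 to 1.63 and 1.70 CPM (-1.38, edgeR adjusted p = 0.0426) and was at 3.52 to 3.92 CPM in shARID1A. The sixth gene, RP11-488C13.1, rested on 1 library: shNC with DMSO had 6.38 and 51.4 CPM, and the other 6 libraries 5.13 to 11.9 CPM. Without that library, shNC DMSO replicate 2, 79 genes were called in shNC, and without replicate 1 of shNC with E2 plus fulvestrant 0 were. In both cases a single library stands for its group and the spread comes from the other groups. The count was 11 without replicate 2 of that group and 14 without either shARID1A library with both agents.

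**Figure D3:**
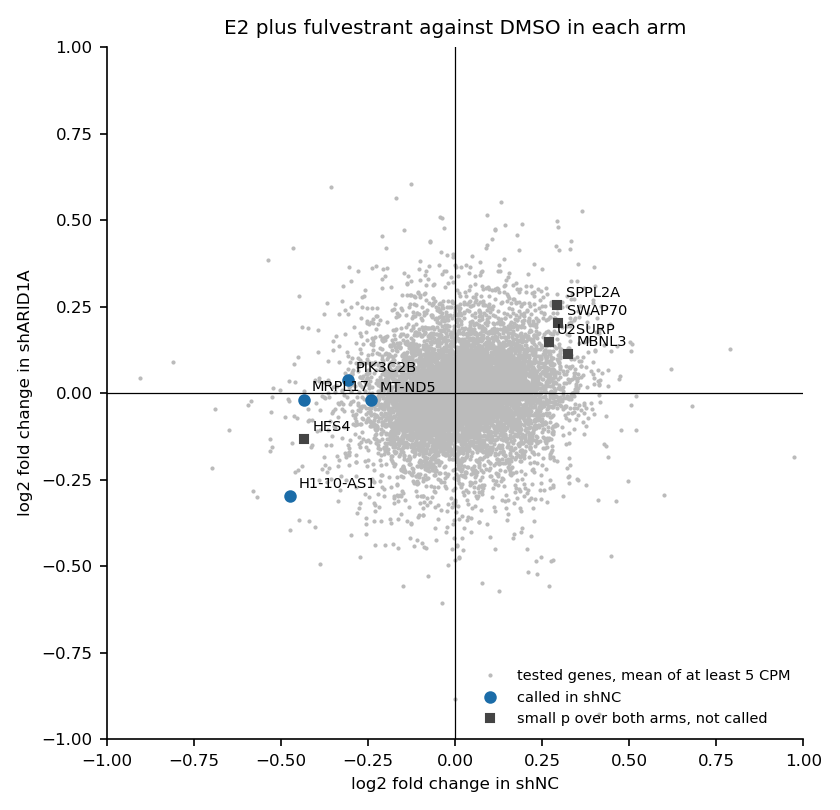
Log2 fold change of E2 plus fulvestrant against DMSO in shNC (horizontal) and in shARID1A (vertical) for genes whose mean reached 5 CPM, of which 10323 are drawn and 2 lie outside the axes. The cloud is round around 0, 4 of the genes called in shNC (blue) sit left of it, of which H1-10-AS1 alone is also clearly below 0 in shARID1A, and the squares are genes with a small p over both arms that were not called.

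Addition of fulvestrant to E2 was compared directly, with all 12 libraries and an average over the arms. This comparison shares its E2 plus fulvestrant libraries with the one against DMSO, so values are set side by side only. It called 11 of 16998 genes (0.0647%), 4 higher and 7 lower than with E2 alone, where DESeq2 called 275, with 8 of the 11 among them. E2 alone against DMSO called 1 gene (0.00588%). The higher genes were the RNA-binding splicing regulators MBNL2 and MBNL3, the nuclear import receptor gene TNPO1 and HNRNPA2B1, which encodes an abundant nuclear RNA-binding protein.

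MBNL2 had 30.2 and 30.6 CPM in shNC and 17.3 and 14.4 CPM in shARID1A with E2, against 38.5 and 36.1 CPM and 20.7 and 27.0 CPM once fulvestrant was added. Its log2 fold change was 0.45 against E2 (SE 0.08, edgeR adjusted p = 0.0253) and 0.28 against DMSO (adjusted p = 0.41), and E2 alone gave -0.17 against DMSO. MBNL3 had 0.29 against E2 (SE 0.05, edgeR adjusted p = 0.0253) and 0.21 against DMSO. TNPO1 was at 301 and 313 CPM in shNC and 229 and 209 CPM in shARID1A with E2, and at 339.8 and 372 CPM and 247 and 276 CPM with both agents. For TNPO1 the values were 0.24 against E2 and 0.17 against DMSO, and for HNRNPA2B1 0.17 and 0.11. E2 alone against DMSO gave -0.07 for MBNL3 and TNPO1 and -0.06 for HNRNPA2B1. The count of 11 rested on single libraries: it was 222 without replicate 2 of shNC with E2, 151 without replicate 1 of shARID1A with both agents and 7 without replicate 1 of shNC with both agents. It was 3 without replicate 2 of shARID1A with both agents, and 1 when replicate 1 of shNC with E2 was dropped. Dropping replicate 2 of shNC with both agents, or replicate 2 of shARID1A with E2, left 0 calls.

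Of the 7 lower genes, 2 belong to the fatty acid synthesis list. FASN, the fatty acid synthase gene, had 2993 and 2777 CPM in shNC with E2 and 2502 and 2402 CPM with fulvestrant added, beside 2792 and 2481 CPM with DMSO. In shARID1A FASN had 1947 and 2103 CPM with E2, 1749 and 1698 CPM with both agents and 1905 and 1932 CPM with DMSO. The FASN log2 fold change was -0.23 against E2 (SE 0.04, edgeR adjusted p = 0.00437), -0.13 against DMSO (95% interval -0.20 to -0.06, adjusted p = 0.41) and 0.10 for E2 alone. ACSS2, which makes acetyl-CoA from acetate, was at 440.5 and 445 CPM in shNC and 388 and 372 CPM in shARID1A with both agents, under every DMSO library of its arm (506 and 478 CPM, 413 and 418 CPM). ACSS2 had -0.19 against E2 (edgeR adjusted p = 0.0253) and -0.14 against DMSO.

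TRIB3, a pseudokinase induced by amino acid and endoplasmic reticulum stress, had -0.25 against E2 (edgeR adjusted p = 0.0253) and -0.14 against DMSO (95% interval -0.24 to -0.05). ANPEP, the cell-surface aminopeptidase N gene, had -0.25 and -0.14, and the simple-epithelium keratin gene KRT7 had -0.18 and -0.13. For ANPEP both arms had their lowest 2 values with both agents, 181 and 178 CPM in shNC and 105 and 108 CPM in shARID1A. The remaining 2 were the pseudogenes SCDP1 and GNG5P2, whose reads can be shared with their parent genes, so that their counts are uncertain. SCDP1 was at 86.7 and 87.6 CPM in shNC and at 33.6 and 13.4 CPM in shARID1A with both agents, and replicates of shARID1A with DMSO were at 86.8 and 26.0 CPM. GNG5P2 was at 0.188 and 0 CPM in shNC with both agents and at 0.213 and 0.135 CPM with DMSO, but at 3.71 and 4.59 CPM with E2. In shARID1A GNG5P2 was present in every treatment at 1.73 to 5.11 CPM, and it was the 1 gene called for E2 against DMSO (log2 fold change 2.35, edgeR adjusted p = 0.00106).

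**Figure D4:**
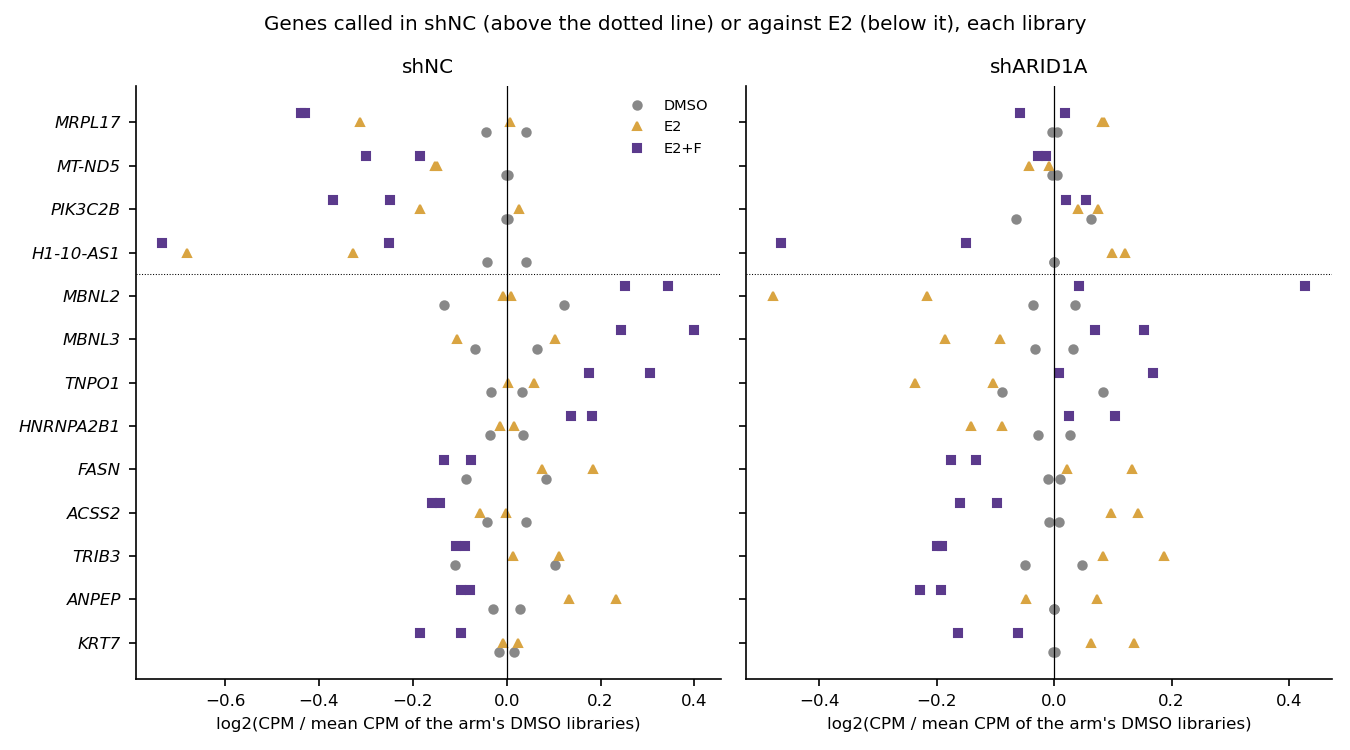
Level in each library relative to the mean of the DMSO libraries of its arm (horizontal axes, log2), for 4 genes called in shNC, above the dotted line, and 9 genes called for E2 plus fulvestrant against E2, below it (E2+F is E2 plus fulvestrant). The squares of MRPL17 lie apart from the DMSO points in shNC and among them in shARID1A, and the squares of FASN and ACSS2 lie left of 0 in both arms.

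Of the 32 gene lists, 0 had a called member over both arms, at a background of 0%. The lists are therefore described by medians and by members with an unadjusted p under 0.05, beside a median of 0.0008 and 8320 positive and 8220 negative values for all tested genes. Of all 16540 tested genes 9.06% had an unadjusted p under 0.05, 811 higher and 688 lower, and the counts of members stand beside that share. Cytosolic ribosomal protein genes had 29 of 30 values negative, with a median of -0.05 over both arms, -0.12 in shNC and -0.02 in shARID1A. Of these 9 had an unadjusted p under 0.05, all of them lower, such as RPLP0, a stalk protein, at 1818 to 1929 CPM in the 4 DMSO libraries of both arms and 1647 to 1835 CPM with both agents. RPLP0 had a log2 fold change of -0.11 (95% interval -0.17 to -0.04, edgeR adjusted p = 0.43), and the structural protein RPL35 had -0.10. The 13 mitochondrially encoded genes had 11 negative values with a median of -0.03. MT-ND1, a complex I subunit, had -0.11 and MT-ATP8, an ATP synthase subunit, -0.13, and MT-ND5 alone was called in shNC.

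Transcript length and the shares of counts in these gene classes were measured beside the lists. Genes whose mean reached 5 CPM were split by summed exon length into 5 classes of 2065 genes. The median log2 fold change over both arms was -0.013 in the class of shortest genes and 0.0234 in that of the longest. Of the shortest genes 56 were higher and 110 lower at an unadjusted p under 0.05, and of the longest 198 were higher and 83 lower. The median level of the longest minus the shortest class, relative to the mean over the libraries of its arm, was -0.0521 log2 units in replicate 1 of shNC with DMSO, 0.0595 in replicate 2 of shARID1A with E2 plus fulvestrant, and between these in the other libraries. Its mean went from -0.0268 with DMSO to 0.025 with both agents in shNC and from 0.0104 to 0.0251 in shARID1A, where replicate 1 with both agents lay below both DMSO libraries. The share of counts in ribosomal protein genes went from 4.45% to 4.18% in shNC and from 4.47% to 4.49% in shARID1A, and the mitochondrial share from 4.95% to 4.86% and from 5.66% to 5.62%. An exact two-sided permutation test within arms, with 36 arrangements, gave p = 0.222 for this measure, 0.278 for the share of counts in ribosomal protein genes and 0.611 for the mitochondrial share, where 0.0556 is the smallest p it can give. Benjamini-Hochberg values over these 3 tests were 0.417, 0.417 and 0.611. The part of transcript length in the results of the lists was not tested.

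The 4 lists that follow, on lipid synthesis and on stress responses, had more negative than positive values. Heat shock genes, with 7 positive and 5 negative, and NRF2 targets, with 8 and 6, did not. The fatty acid synthesis genes had 7 of 9 negative and a median of -0.05, and of these FASN and ACSS2 had an unadjusted p under 0.05. SREBF1, the transcription factor gene that controls them, had -0.08. Cholesterol synthesis genes had 15 of 23 negative with a median of -0.02, with FDPS and EBP at -0.08 each and IDI1 at 0.10. In the unfolded protein and amino acid response 16 of 21 were negative, with a median of -0.05, and 4 had an unadjusted p under 0.05, all lower, among them TRIB3, the serine hydroxymethyltransferase gene SHMT2 (-0.07) and the glutathione-degrading enzyme gene CHAC1 (-0.15). Hypoxia genes had 18 of 26 negative and a median of -0.04, with 5 lower and 1 higher at an unadjusted p under 0.05. SLC2A1, the glucose transporter gene, was at 152 to 177 CPM with DMSO and 136 to 159 CPM with both agents (-0.14, 95% interval -0.22 to -0.05). NDRG1, a stress- and hypoxia-induced gene, was at 494 and 489 CPM in shNC with DMSO and 409 and 449 CPM with both agents, and overlapped in shARID1A (-0.11), while ALDOC, a glycolytic aldolase gene, had -0.17.

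Steroid metabolism genes had 13 positive and 6 negative values with a median of 0.07, among them HSD17B11 at 0.32 (95% interval 0.05 to 0.58) and HSD11B2, which inactivates cortisol, at 0.54 (95% interval 0.09 to 1.00, edgeR adjusted p = 0.52), the latter at 0.878 to 3.92 CPM. HSD17B4, a peroxisomal enzyme gene, had 0.08. Glucocorticoid and progestin response genes had a median of -0.02 over 14 members, with NR3C1, the glucocorticoid receptor gene, at 0.12 and the clock gene PER1 at -0.13. AHR targets had 6 of 8 positive and a median of 0.02, and AHR itself had 0.23 (95% interval -0.04 to 0.49). The immediate early genes (12 members, median 0.01) included JUND at -0.10 and NR4A2 at 0.12, and NR4A2 was at 12.7 to 16.9 CPM in shNC and 70.2 to 78.7 CPM in shARID1A. MAPK feedback genes had 8 of 15 negative with the ETS factor genes ETV4 at -0.17 and ETV5 at -0.10.

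Cell cycle genes had 15 positive and 15 negative values and a median of 0.0009, with MCM5, a replication helicase subunit, and CDC20, an activator of mitotic exit, at -0.10 each and the topoisomerase gene TOP2A at 0.12. For 29 of the 30 the interval lay within a 1.5-fold change. Targets of p53 had a median of -0.02 over 16 members, with CCNG1 at 0.17, the cyclin-dependent kinase inhibitor gene CDKN1A at -0.12 and GDF15 at -0.20. Heat shock genes had a median of 0.07 over 12 members, 0.09 in shNC and 0.01 in shARID1A. The chaperone gene HSPA1A was negative at -0.14, whereas CHORDC1 and HSPH1, which encode a cochaperone and a large chaperone, had 0.16 and 0.11. Ribosome biogenesis genes had a median of 0.0009 over 17 members, with the nucleolar protein genes NOP58 at 0.18 and NOLC1 at 0.07 and RRP12 at -0.08.

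NF-kB and inflammatory genes had 10 of 13 negative and a median of -0.06, with IL32 at -0.16, the adhesion gene ICAM1 at -0.11 and the apoptosis inhibitor gene BIRC3 at 0.35. Interferon-stimulated genes had a median of -0.01 over 11 members, with the regulator IRF7 at -0.21, HLA-B at -0.08 and OAS1 at 0.16. TGF-beta targets had 11 of 14 negative and a median of -0.05, with COL1A1 at -0.17, SMURF1, a ubiquitin ligase gene, at -0.18 and the feedback repressor gene SKIL at 0.21. YAP and TEAD targets had a median of 0.0032 over 17 members, with RBMS3 at 0.48, the transcription factor gene TEAD1 at 0.11 and MYOF at 0.09. WNT targets had 5 positive and 5 negative values, with the feedback gene AXIN2 at -0.36 (95% interval -0.74 to 0.01), SP5 at 0.29 and the stem cell receptor gene LGR5 at -0.61, which had at most 1.06 CPM. NRF2 targets had a median of 0.01 over 14 members with the thioredoxin reductase gene TXNRD1 at 0.08, PGD at -0.06 and ME1 at 0.07. Circadian genes had 6 positive and 6 negative values, with NR1D2 at 0.21 and DBP at -0.23. SWI/SNF subunits had 14 of 25 negative and a median of -0.03, with PHF10 at 0.14, SS18 at 0.12 and DPF2 at -0.11. Epithelial markers had a median of -0.02 over 11 members, with the mucin gene MUC1 at -0.14 (95% interval -0.24 to -0.04).

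**Figure D5:**
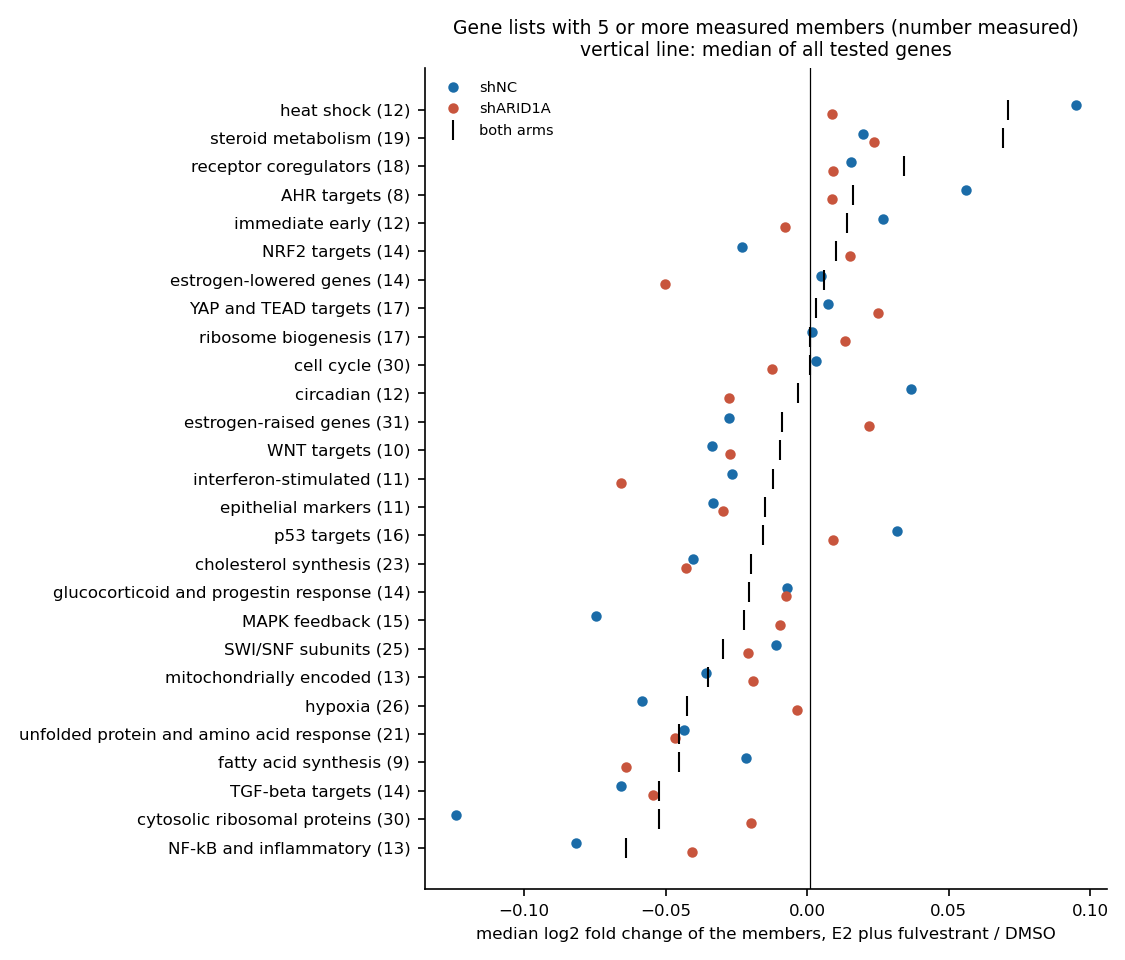
Median log2 fold change of E2 plus fulvestrant against DMSO (horizontal axis) over the measured members of the 27 lists with 5 or more of them, in shNC (blue), in shARID1A (red) and over both arms (black bars). The medians over both arms run from -0.0639 to 0.071 and the arms differ most for the cytosolic ribosomal proteins.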

How the data were processed

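RNA was measured by sequencing of mRNA libraries. The authors deposited unnormalized counts of reads for each gene: per the file headers they came from featureCounts 2.0.0, and per the submitters' processing notes from reads trimmed with Trim Galore and cutadapt and aligned with Subread 2.0.0 to hg19. No strand or pair setting is in the headers, so overlapping genes and near-identical copies are uncertain. The labels type the zeros of the fulvestrant dose as letters; 100 nM is assumed. The table of the series held 45293 genes and had 0 values that differ from the files of single libraries.

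Models were fitted with edgeR 4.0.16 under R 4.3.3 (filterByExpr by group, TMM, glmQLFit with legacy = FALSE, glmQLFTest). Over both arms the fit held the arm and the treatment on 8 libraries with 5 residual degrees of freedom. Single arms and their difference came from 4 group means on the same libraries, and comparisons with E2 alone from 6 group means on all 12, which hold 16998 tested genes. A gene is called at a Benjamini-Hochberg adjusted p under 0.05. Intervals are 95% intervals of the fitted log2 fold change. The script was tested on simulated data.

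DESeq2 1.42.0, RLE factors, other filters, the replicate block and leaving out each library were run as alternatives. The genes named are called ones, ARID1A, ESR1, PGR, GREB1 and up to 3 members with the smallest p of each list, and all other genes named were chosen after their values were seen. The comparison and the 32 lists were chosen with earlier results of these data known, and the lists were written from general knowledge. Members of lists that filterByExpr removed were not tested.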

Additional observations from a re-analysis of the deposited data

Results flagged for a closer look

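RP11-543P15.1, a short locus on chromosome 12 (3320775 to 3321096, hg19), moved to opposite sides in the arms with no overlap of libraries. In shNC it was at 433 and 379 CPM with DMSO and at 337 CPM in each library with E2 plus fulvestrant, a log2 fold change of -0.27. In shARID1A it was at 335 and 344 CPM with DMSO and at 416 and 345 CPM with both agents, a log2 fold change of 0.17. The difference between arms was 0.44, the smallest p of that test over all genes, and it did not pass (edgeR adjusted p = 0.198). RPL37, a protein of the large ribosomal subunit, had the smallest p of a protein-coding gene in that test, with -0.24 in shNC, 0.14 in shARID1A and a difference of 0.38 (edgeR adjusted p = 0.198). Opposite sides without overlap occurred in 763 of 16540 tested genes (4.61%).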

How the results depend on the processing

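Over both arms the count of called genes stayed at 0 with DESeq2, without a filter on low counts, with a minimum of 1 CPM in 4 libraries and with all 12 libraries, and was 1 with RLE factors, 1 with 4 group means and 2 with the replicate number as a block. Leaving out 1 library gave 0 to 50 calls, the most without replicate 1 of shARID1A with E2 plus fulvestrant. In shNC there were 1 call without a filter, 2 with all 12 libraries, 17 with DESeq2 and 19 with the block, and 0 (without replicate 1 of E2 plus fulvestrant) to 79 (without replicate 2 of DMSO) with a library left out. In shARID1A there were 1 with RLE factors, 4 with the block and 1 to 7 with a library left out, and for the difference between arms 1 with DESeq2, 4 with the block and 1 to 11. Against E2 there were 243 without a filter, 275 with DESeq2, 40 with the block, and 0 (without replicate 2 of shNC with both agents, or replicate 2 of shARID1A with E2) to 222 (without replicate 2 of shNC with E2). E2 against DMSO gave 8 without a filter, 1 with the block and 0 to 4 with a library left out. To see whether same-numbered libraries deviate together, the log2 difference between replicate 1 and replicate 2 was taken in each group. These differences were correlated between groups over 10325 genes. The correlation was 0.128 to 0.21 for the 3 pairs of groups without shARID1A with DMSO. It was -0.094 to -0.076 for the 3 pairs with that group. As not every pair was positive, the replicate numbers were not taken to pair the libraries. Of 1588 values of 106 named genes under alternatives, 1562 kept direction and side of the threshold, 16 passed it and 10 changed sign. Those were GNG5P2 (-0.0012 with all 12 libraries, -0.0009 with 4 group means) and, with 1 library left out, RP11-488C13.1 (range -1.53 to 0.49), RP11-543P15.1 (-0.15 to 0.0304), RPL37 (-0.14 to 0.0103), CCND1 (-0.064 to 0.014) and ZNF669 (-0.13 to 0.0857). The cause was not tested. Depth limits genes under 1 CPM, where 0 of 3294 intervals lay within 1.5-fold.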
